A study of Mus musculus with 12 samples.

Results

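The genes described are 8 imprinted genes of the mouse, *Peg3*, *Mest*, *Peg10*, *Plagl1*, *Grb10*, *Igf2r*, *Impact* and *Slc38a4*, for which background knowledge places a differentially methylated region at or within a promoter that carries 5-methylcytosine (5mC) on the maternal copy. Their CpG islands were found by position: array probes inside a window around each gene, on mouse build mm9, were taken. This gave 72 of the 88737 probes of the array, and neighbours within a window no more than 1000 bp apart were joined, which gave 10 of the 14580 loci of the array.

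An imprinted gene is expressed from the copy of a single parent. At genes of the maternally methylated kind the mark is laid down in the oocyte, it survives the wave of demethylation after fertilisation, and the methylated copy of the promoter is silent. Embryonic stem (ES) cells carry these marks from the embryo, and culture is known to alter them. In DNA from a whole population of cells, a gain or loss on either copy changes the same signal, so the arrays do not say which parental copy a fragment came from.

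DNA methylation was measured on 12 Agilent CpG island arrays, 3 replicates of each of 4 mouse ES cell lines. All 4 lines have the nuclear genome of CC9.3.1, a line from an embryo of 129SvEv-Gpi1c(129S6). They differ in mitochondrial DNA (mtDNA), which is that of *Mus musculus* in CC9 mus, *Mus spretus* in CC9 spretus, *Mus dunni* in CC9 dunni and *Mus pahari* in CC9 pahari, and the comparison asks whether methylation differs with it. Each mtDNA was represented by 1 line, so that an effect of the mtDNA and a property of that line cannot be told apart. All cells had spent 48 h without feeder cells. The last 3 lines are called the divergent lines.

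In methylated DNA immunoprecipitation (MeDIP), an antibody to 5mC collects methylated fragments, here 200 to 1000 bp long, and this fraction (IP) was hybridised against input DNA. Values are log2(IP/input) with the median of each array set to 0, so a positive value means more enrichment than at the median probe of that array. The value of a locus is the mean of its probes. Probes of one island can share fragments and are not independent, so counts of probes are not counts of separate observations. The arrays of CC9 mus differed in spread, with an SD of the log2 ratio of 0.53, 1.85 and 2.01 for replicates 1, 2 and 3, while the 9 arrays of the divergent lines had 1.09 to 1.38. By the scaled median absolute deviation the CC9 mus arrays had 0.46, 1.99 and 1.94 and the divergent arrays 0.59 to 1.23. Scaling to an equal spread used this measure, so that it also rescaled the divergent arrays against each other. The CC9 mus arrays were all scanned in the later of 2 scan periods and shared their scan day with none of the other lines, so that line and scan day cannot be told apart for CC9 mus. Replicates 1 and 2 of each divergent line were scanned in the earlier period and replicate 3 in the later. Replicate 3 of all 3 divergent lines was scanned on 1 day. In the earlier period the 2 CC9 spretus arrays were scanned on days of their own and the 4 arrays of CC9 dunni and CC9 pahari on another, so that within this period CC9 spretus and scan day cannot be told apart. Replicates 1 and 2 of CC9 dunni shared a slide, and so did those of CC9 pahari, those of CC9 mus, and replicate 3 of CC9 spretus and of CC9 dunni. The deposited design calls the replicates biological without naming separate cultures, so the p-values measure the spread between these 12 samples.

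The islands lay at chr7:6682111-6683212 for *Peg3* (9 probes), chr6:30688012-30688541 for *Mest* (6 probes), chr6:4697308-4698444 for *Peg10* (7 probes), chr10:12810275-12811158 for *Plagl1* (7 probes), chr15:96884810-96885274 for *Slc38a4* (3 probes) and chr18:13131830-13132313 for *Impact* (3 probes). The windows of *Grb10* and *Igf2r* held 2 islands each. Those of *Grb10* were chr11:11925467-11926345 (10 probes) and chr11:11936447-11938162 (9 probes), and those of *Igf2r* were chr17:12934260-12935460 (10 probes) and chr17:12961815-12962950 (8 probes). Both genes are read from the minus strand, so the island with the higher coordinates, called the upper island, is nearer the start of the gene. The lower island is the region known for maternal methylation, within *Grb10* and within the second intron of *Igf2r*, where it holds the promoter of the antisense RNA *Airn*. None of the spots of these probes was saturated on any array, a count of 0, and 1 spot was left out as an outlier.

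The islands of *Peg3*, *Plagl1*, *Mest* and the lower island of *Igf2r* were strongly enriched for 5mC in CC9 mus, with line means from 4.00 to 4.55, and those of *Peg10* and *Impact* lay near the array median in most arrays. By a threshold of 2 for the mean over 3 arrays (a ratio of 4), 46 of the 72 probes were enriched in CC9 mus, against 9.39% of all probes. In CC9 spretus 33 of 72 passed (5.16% of all probes), in CC9 dunni 10 of 72 (5.32%) and in CC9 pahari 6 of 72 (4.71%). The 6 probes of CC9 pahari were the 6 of *Mest*. In at least 1 line 52 of 72 probes passed (10.8% of all), and 0 of 72 had a mean below −2 in any line (4.47% of all). The median of the 72 line means was highest with CC9 mus (2.49), then CC9 spretus (1.62), followed by CC9 dunni (0.77) and last CC9 pahari (−0.01), while over all probes these medians were 0.00, −0.02, −0.02 and −0.02. With the threshold required on every array of a line, 21 probes passed in place of 52, against 4.81% of all probes.

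**Figure D1:**
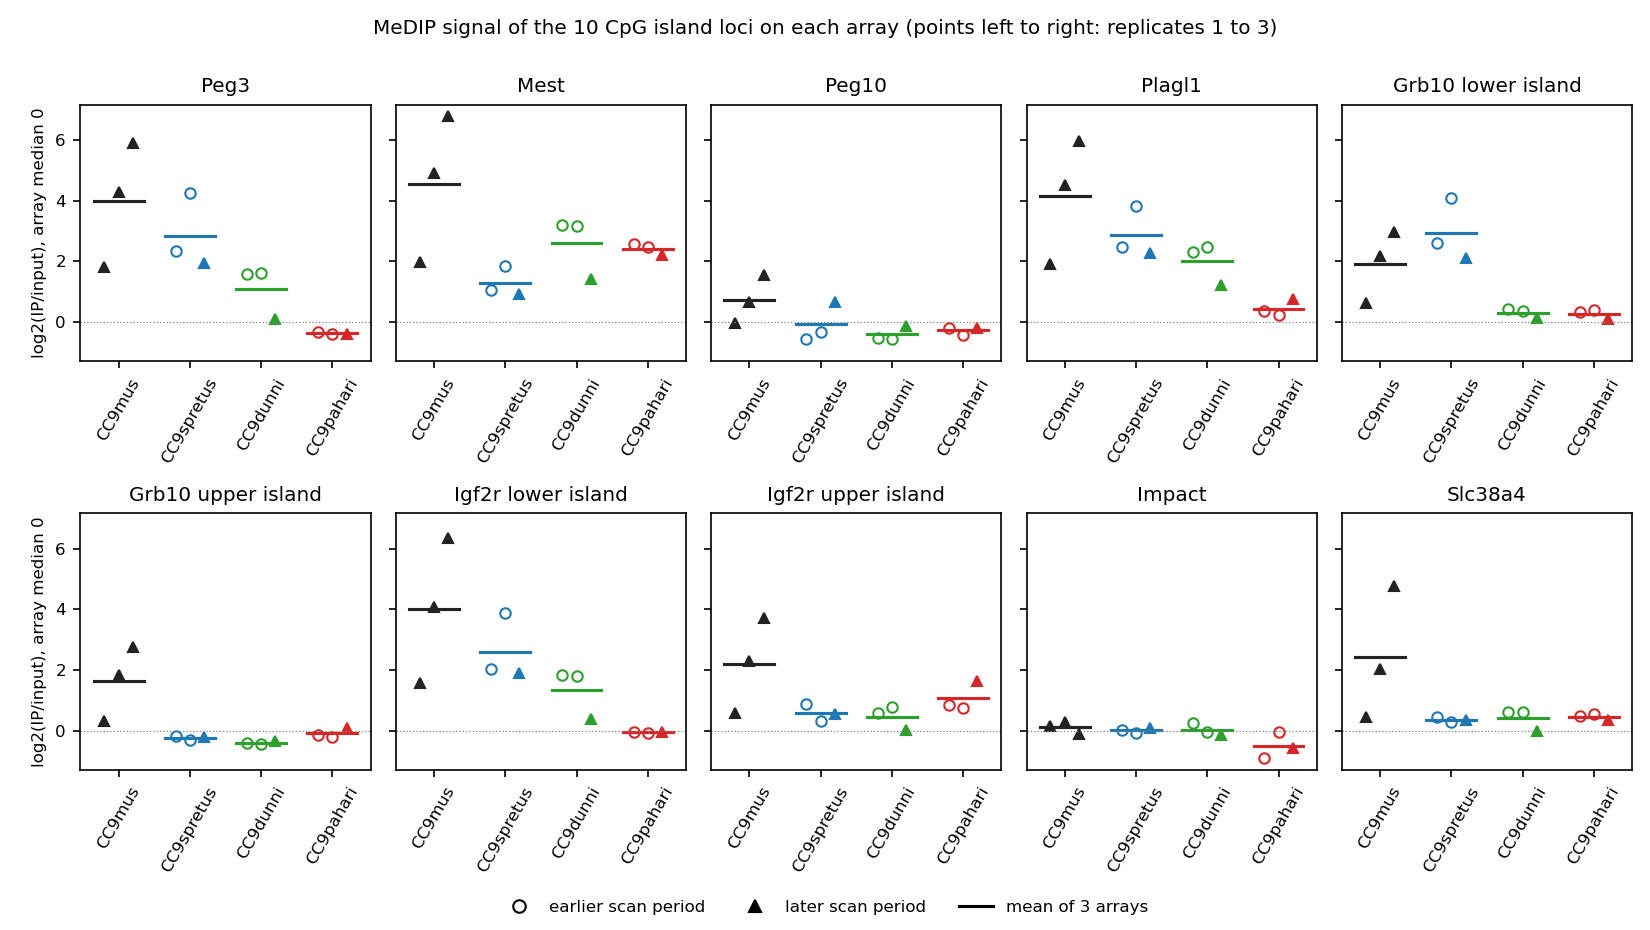
The log2(IP/input) of each of the 10 loci (vertical axis, array median at 0) on each array, by line (horizontal axis), with a bar at the mean of the 3 arrays and open circles and filled triangles for the earlier and later scan period. CC9 mus has the highest mean at 9 of the 10 loci, against 33.0% of all loci. Its 3 arrays lie far apart at most of the 10, from 1.81 to 5.91 at *Peg3*.

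*Peg3* encodes a zinc finger protein, and its island gave a value on every array of CC9 pahari that was slightly below the array median. On the CC9 mus arrays the log2 ratio was 1.81, 4.27 and 5.91, on those of CC9 spretus 2.34, 4.24 and 1.94, on those of CC9 dunni 1.59, 1.60 and 0.11, and on those of CC9 pahari −0.32, −0.39 and −0.38. All 3 CC9 pahari arrays were below the 9 others, and the CC9 mus and CC9 spretus arrays overlapped. The line means of CC9 mus, CC9 spretus and CC9 pahari were 4.00 ± 2.06, 2.84 ± 1.23 and −0.36 ± 0.04 (SD, n = 3), with CC9 dunni between the last pair. CC9 spretus lay above CC9 dunni and CC9 dunni above CC9 pahari with no overlap of their arrays. Between CC9 mus and the mean of the divergent lines the difference was 2.80 ± 0.74 (SE, limma, adjusted p = 0.0535), which did not pass the threshold of 0.05. Over the alternatives the adjusted p ran from 0.00082, without CC9 mus replicate 1, to 0.375, and no other array left out took it past the threshold. The difference was 1.85 with the arrays scaled to an equal spread and 1.85 without CC9 mus replicate 3. Among its probes, A_68_P24956668 (chr7:6683168-6683212) had the highest mean over the 12 arrays, 2.25, and A_68_P24956657 (chr7:6682111-6682162) the lowest, 1.33. The IP signal cleared the background at 6 or 7 of the 9 probes per CC9 pahari array, and at 9 of 9 per array of the other lines.

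*Plagl1* encodes a zinc finger transcription factor. Its island gave 1.93, 4.53 and 5.98 on the CC9 mus arrays, 2.49, 3.82 and 2.27 on those of CC9 spretus, 2.31, 2.48 and 1.22 on those of CC9 dunni, and 0.37, 0.22 and 0.75 on those of CC9 pahari. As at *Peg3*, every CC9 pahari array was below the 9 others, but here CC9 mus, CC9 spretus and CC9 dunni overlapped in turn. The line means were 4.14 ± 2.05, 2.86 ± 0.84, 2.01 ± 0.68 and 0.45 ± 0.27 (SD, n = 3). The difference of CC9 mus from the divergent lines was 2.37 ± 0.68 (SE, limma, adjusted p = 0.0606, and 0.00054 without CC9 mus replicate 1 to 0.375 over the alternatives). It was 1.29 with equal spread and 1.46 without CC9 mus replicate 3. Along the island the lines did not keep one distance. In CC9 pahari the mean was 1.87 at A_68_P26949004 and 1.95 at A_68_P26949005, next to each other, and −0.73 to 0.39 at the 5 other probes; this pair was chosen after its values were seen. The highest mean over the 12 arrays was 2.82 at A_68_P26949006 (chr10:12810713-12810757) and the lowest 2.02 at A_68_P26949010 (chr10:12811106-12811158).

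*Igf2r* encodes the receptor that takes insulin-like growth factor 2 to the lysosome. Its lower island gave 1.57, 4.09 and 6.34 on the CC9 mus arrays, 2.03, 3.87 and 1.90 on those of CC9 spretus, 1.83, 1.82 and 0.37 on those of CC9 dunni, and −0.03, −0.08 and −0.05 on those of CC9 pahari. The order of the lines was that of *Peg3*, again with every CC9 pahari array below the 9 others and with CC9 spretus above CC9 dunni on all arrays. Line means were 4.00 ± 2.38, 2.60 ± 1.11, 1.34 ± 0.84 and −0.05 ± 0.03 (SD, n = 3), and CC9 mus minus the divergent lines was 2.70 ± 0.80 (SE, limma, adjusted p = 0.0639, and 0.000959 without CC9 mus replicate 1 to 0.375 over the alternatives). With equal spread this value was 1.58, and without CC9 mus replicate 3 it was 1.53. The upper island, at the start of the gene, gave 0.60, 2.30 and 3.70 on the CC9 mus arrays, 0.89, 0.33 and 0.55 for CC9 spretus, 0.58, 0.80 and 0.01 for CC9 dunni, and 0.86, 0.76 and 1.63 for CC9 pahari. Here CC9 pahari had the second highest mean, 1.08 ± 0.47 (SD, n = 3), and all neighbours in the order of the 4 lines overlapped. The difference of CC9 mus was 1.49 ± 0.50 (SE, limma, adjusted p = 0.0806, and 0.000881 without CC9 mus replicate 1 to 0.382). For the upper island it was 0.77 with equal spread, 2.29 without CC9 mus replicate 1 and 0.73 without replicate 3. Of the 18 probes of the gene, A_68_P31053612 (chr17:12935271-12935317, lower island) had the highest mean over the 12 arrays, 2.37, and A_68_P31053790 (chr17:12961815-12961874, upper island) the lowest, 0.02. The IP signal of the latter was well over background on 7 of 12 arrays, which limits its value and rank.

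*Grb10* encodes an adaptor protein that dampens signalling from the insulin receptor. At its lower island the log2 ratio was 0.63, 2.16 and 2.97 on the CC9 mus arrays, 2.62, 4.08 and 2.10 on those of CC9 spretus, 0.44, 0.35 and 0.13 on those of CC9 dunni, and 0.33, 0.41 and 0.09 on those of CC9 pahari. This was the locus at which CC9 spretus had the highest mean, 2.93 ± 1.03, above 1.92 ± 1.19 in CC9 mus with overlapping arrays. CC9 dunni (0.31 ± 0.16) and CC9 pahari (0.28 ± 0.16, SD, n = 3) overlapped each other and lay below all arrays of CC9 mus and CC9 spretus. The difference of CC9 mus from the divergent lines was 0.75 ± 0.47 (SE, limma, adjusted p = 0.281, and 0.0171 without CC9 mus replicate 1 to 0.970 over the alternatives), and it was 0.04 with equal spread, 1.39 without CC9 mus replicate 1 and 0.22 without replicate 3.

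The upper island of *Grb10* had a different order of lines. There the values were 0.31, 1.83 and 2.75 on the CC9 mus arrays, −0.19, −0.31 and −0.21 for CC9 spretus, −0.39, −0.44 and −0.32 for CC9 dunni, and −0.15, −0.20 and 0.09 for CC9 pahari. Every CC9 mus array was above the 9 others, which held at 1 of the 10 loci and at 3.61% of all loci. The difference was 1.87 ± 0.37 (SE, limma, adjusted p = 0.0514, higher in 3 of 3 CC9 mus arrays). With equal spread it was 1.36 (adjusted p = 0.00333), with normexp background correction of the median spot signals in place of the processed signals 0.94, and over the alternatives the adjusted p ran from 0.000244, without CC9 mus replicate 1, to 0.375, with the later scan period alone. All CC9 dunni arrays were below the 9 others here, as at 0.583% of all loci. A_68_P27594331 (chr11:11938103-11938162) gave 0.91, 4.02 and 2.63 in CC9 mus against −2.58 to 0.14 for the 9 other arrays, a difference of 3.77 ± 0.59 (SE, limma, adjusted p = 0.0405). A_68_P27594321 (chr11:11936447-11936497) gave 0.01, 1.38 and 2.66 in CC9 mus against −2.71 to −0.84 for the other 9, a difference of 2.77 ± 0.49 (SE, limma, adjusted p = 0.0405). Both calls were lost when any single array other than CC9 mus replicate 1 was left out, and the adjusted p of either probe reached 0.521 within the later scan period. With normexp correction the differences were 1.79 and 0.93. The IP signal of A_68_P27594331 was well over background on 1 of the 3 CC9 dunni arrays and that of A_68_P27594321 on 2 of them. The latter probe also had the lowest mean of the 19 probes over the 12 arrays, −0.73, and A_68_P27594246 (chr11:11926108-11926153, lower island) had the highest, 1.97.

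*Mest* encodes a protein of the alpha/beta hydrolase fold. It was the only one of the 10 loci with a value above 0.9 on every array: 1.97, 4.90 and 6.78 in CC9 mus, 1.05, 1.86 and 0.93 for CC9 spretus, 3.21, 3.17 and 1.43 for CC9 dunni, and 2.57, 2.48 and 2.22 for CC9 pahari. CC9 spretus was lowest, with arrays below all of those of CC9 pahari, while CC9 mus, CC9 dunni and CC9 pahari overlapped. Line means were 4.55 ± 2.42, 1.28 ± 0.51, 2.60 ± 1.02 and 2.42 ± 0.18 (SD, n = 3) in that order, and CC9 mus minus the divergent lines was 2.45 ± 0.78 (SE, limma, adjusted p = 0.0734, and 0.000592 without CC9 mus replicate 1 to 0.375 over the alternatives). The difference was 1.18 with equal spread, 3.74 without CC9 mus replicate 1 and 1.33 without replicate 3. Each of the 6 probes had its highest line mean in CC9 mus. The highest mean over the 12 arrays was 2.82 at A_68_P24333874 (chr6:30688204-30688248) and the lowest 2.60 at A_68_P24333876 (chr6:30688404-30688448).

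**Figure D2:**
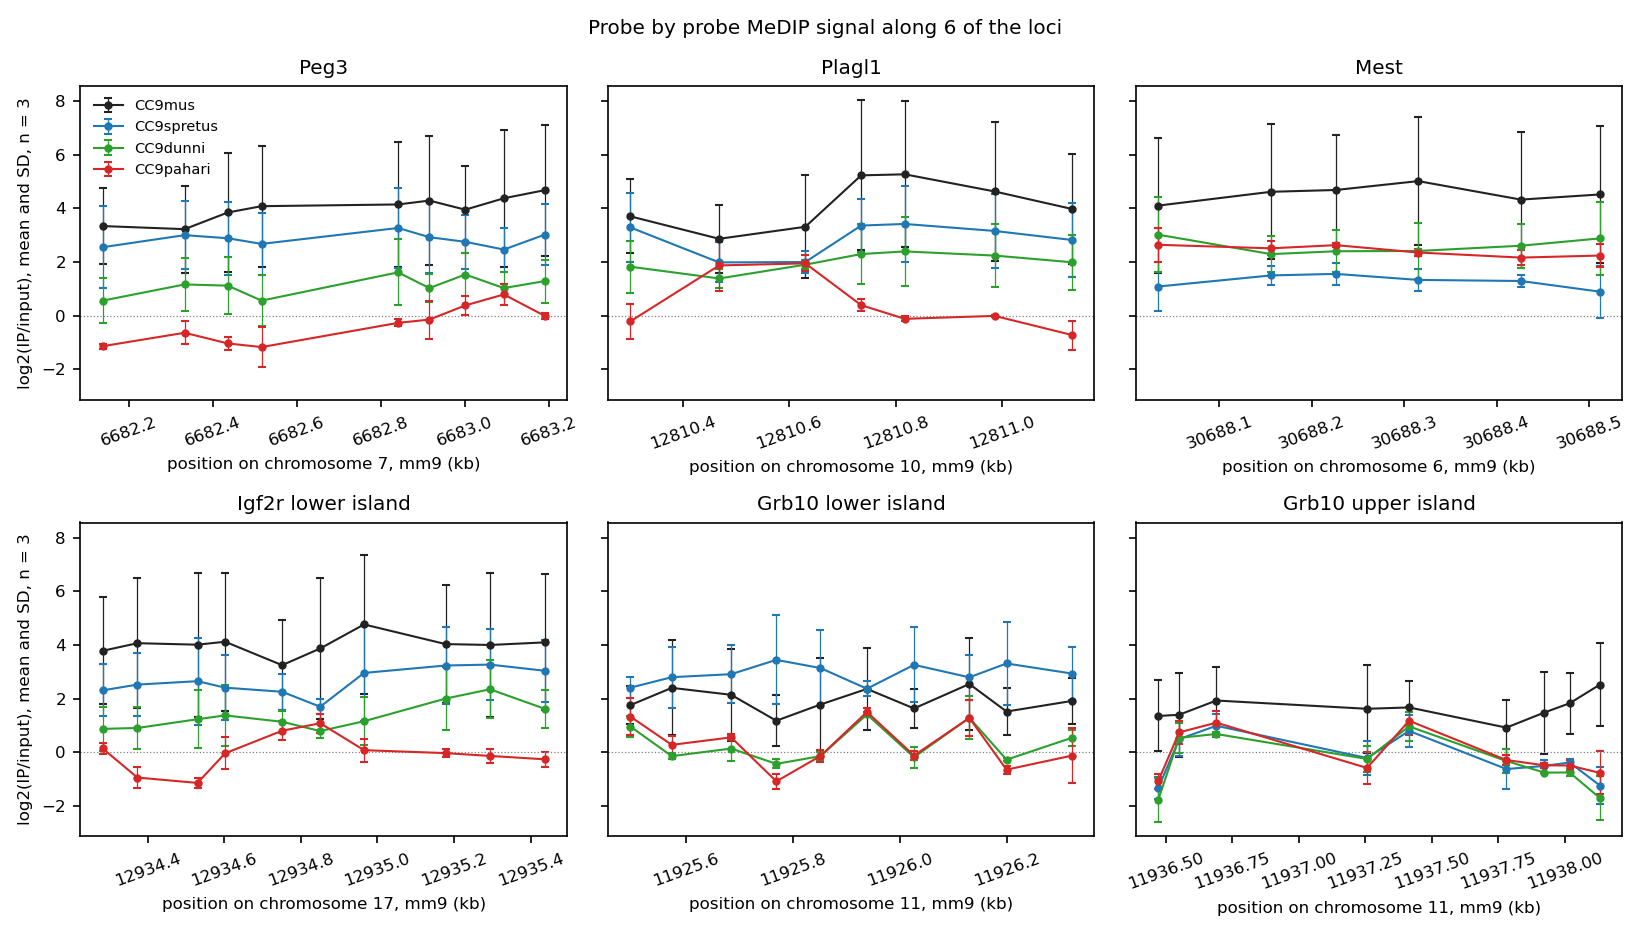
The log2(IP/input) of each probe along 6 of the loci (vertical axis, mean and SD over the 3 arrays of a line) against position on mm9 in kb (horizontal axis), coloured by line. CC9 pahari lies between −1.18 and 0.79 along *Peg3* and between 2.17 and 2.64 along *Mest*. In the lower island of *Grb10* the IP signal of A_68_P27594239 was well over background on 1 of 12 arrays and its input on 0, so that its values give no order of the lines.

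*Slc38a4* encodes a transporter of neutral amino acids. Its island gave 0.46, 2.05 and 4.78 on the CC9 mus arrays, 0.44, 0.30 and 0.35 for CC9 spretus, 0.61, 0.62 and 0.00 for CC9 dunni, and 0.47, 0.56 and 0.34 for CC9 pahari. CC9 mus replicates 2 and 3 were above all others, and replicate 1 lay within the range of the divergent lines. The difference was 2.02 ± 0.65 (SE, limma, adjusted p = 0.0742, and 0.00118 without CC9 mus replicate 1 to 0.375), with equal spread 1.14 (adjusted p = 0.0323), with normexp correction 1.27, and without CC9 mus replicate 3 it was 0.84. A_68_P30467108 (chr15:96884810-96884861) alone of its 3 probes was called, with 0.53, 2.68 and 4.64 in CC9 mus, −0.34 to 0.51 for the 9 other arrays and a difference of 2.56 ± 0.61 (SE, limma, adjusted p = 0.0437). Leaving out any 1 array but CC9 mus replicate 1 ended this call, and within the later scan period its adjusted p was 0.521. The IP signal of the probe was well over background on 3 of 3 CC9 mus arrays, but on 2, 1 and 1 of 3 arrays of CC9 spretus, CC9 dunni and CC9 pahari. Its difference was 1.16 with normexp correction, 1.70 with equal spread and 1.55 without CC9 mus replicate 3. This probe had the lowest mean over the 12 arrays, 0.70, and A_68_P30467109 (chr15:96884897-96884941) the highest, 1.03.

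*Peg10*, a gene derived from a retrotransposon and needed in the placenta, and *Impact*, which encodes an inhibitor of a kinase of the amino acid starvation response, were not enriched above the array median in most samples, so the description as methylated did not hold for the values of these probes. The *Peg10* island gave −0.02, 0.66 and 1.54 on the CC9 mus arrays, −0.55, −0.34 and 0.68 for CC9 spretus, −0.52, −0.54 and −0.13 for CC9 dunni, and −0.19, −0.43 and −0.18 for CC9 pahari. CC9 mus and CC9 spretus overlapped, and each of the 4 lines overlapped its neighbour in the order of means. The difference of CC9 mus was 0.97 ± 0.32 (SE, limma, adjusted p = 0.0795, and 0.00575 without CC9 mus replicate 1 to 0.466), and it was 0.43 with normexp correction, 0.60 within the later scan period and 0.56 without CC9 mus replicate 3. A_68_P24206535 (chr6:4697572-4697631) had the highest mean over the 12 arrays, 0.97, though its IP spot stood well over background on just 3 of 12 arrays. The lowest, −0.64, was that of A_68_P24206542 (chr6:4698392-4698444), whose IP spot stood well over background on 7 of 12 arrays. At *Impact* the values were 0.16, 0.29 and −0.10 in CC9 mus, 0.04, −0.08 and 0.08 for CC9 spretus, 0.24, −0.04 and −0.13 for CC9 dunni, and −0.90, −0.03 and −0.58 for CC9 pahari. All neighbouring lines overlapped and the difference of CC9 mus was 0.27 ± 0.19 (SE, limma, adjusted p = 0.333, and 0.202 to 0.653 over the alternatives) and 0.10 with normexp correction. A_68_P31503846 had the highest mean over the 12 arrays, 0.01, and A_68_P31503849 the lowest, −0.16.

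Set against the mean of the divergent lines, all 72 probes had a higher mean in CC9 mus, against 46.8% of all probes. These probes lie in 10 loci and are not 72 separate observations. Their median difference was 1.90, against −0.06 over all probes. That median was 1.83 without centring, 1.30 with normexp correction and 0.96 with equal spread. The number above 0 was 72 without centring (median of all probes −0.13), 71 with normexp correction (the exception in *Impact*) and 66 with equal spread (the exceptions in the lower island of *Grb10* and in *Peg10*). In the limma fit over all probes 14 of the 72 were called higher in CC9 mus at an adjusted p under 0.05, against 2.76% of all probes, and 0 were called lower. At an unadjusted p under 0.05 there were 50 of 72, against 28.9% of all probes. The 14 lay in *Peg3* (4), the upper island of *Grb10* (4), *Mest* (2), the lower island of *Igf2r* (2), *Peg10* (1) and *Slc38a4* (1). All 3 CC9 mus arrays were above the 9 others at 5 of the 72 (3.78% of all probes), 4 in the upper island of *Grb10* and 1 in *Slc38a4*. In the lower island of *Grb10*, the region known for maternal methylation, no probe was called. Of the 4056 probes called on the whole array 2453 were higher in CC9 mus (60.5%), of 24 with normexp correction 17 (70.8%), of 10701 with equal spread 5031 (47.0%), and of 19028 with equal spread and the scan period in the model 4974 (26.1%). In this last fit 22 of the 72 probes were called higher and 1 lower, with 21.4% of all probes called. The 14 became 58 without CC9 mus replicate 1, where 40.4% of all probes were called and 19.8% were called higher, and 0 without any other single array, and also 0 with normexp correction, with the slide or the scan period in the model, or within the later scan period, 22 without centring (5.83% of all probes called, 3.77% higher), and 9 with equal spread (12.1% called, 5.67% higher). At the level of loci 0 of 10 were called in the limma fit (0% of all loci), with 8 of 10 at an unadjusted p under 0.05 (32.3% of all loci) and 9 of 10 called without CC9 mus replicate 1, against 50.3% of all loci (22.6% higher). Within the later scan period the differences of the loci were 0.32 at *Impact* to 3.44 at *Peg3*, none with an adjusted p under 0.375.

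Each divergent line was also set against CC9 mus, and these 3 comparisons share the CC9 mus arrays. The median difference over the 72 probes was −1.33, −1.94 and −2.09 with CC9 spretus, CC9 dunni and CC9 pahari in turn (0.03, 0.03 and 0.12 over all probes). Of the 72 probes 61, 72 and 72 were below 0, against 48.2%, 48.7% and 44.0% of all probes. Those above 0 in CC9 spretus lay in the lower island of *Grb10* and in *Impact*. With equal spread the medians were −0.29, −1.17 and −1.41 and 49, 68 and 67 probes were below 0, so that in CC9 spretus 23 probes were above 0, some of them in *Peg3*, *Plagl1*, *Peg10* and the lower island of *Igf2r* besides *Grb10*. Without centring 61, 71 and 72 were below 0, and with normexp correction 61, 72 and 72. In limma none of the 72 was called in any of the 3 comparisons, 0 of 72 each with 0% of all probes. At an unadjusted p under 0.05 CC9 spretus had 25 of 72 (17.1% of all probes), CC9 dunni 50 (23.4%) and CC9 pahari 45 (20.7%). The called probes numbered 43, 60 and 60 once CC9 mus replicate 1 was left out, against 27.0%, 34.0% and 31.7% of all probes in the same fits. With equal spread they numbered 2, 9 and 15, against 0.178%, 9.16% and 3.95% of all probes.

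Among the divergent lines alone, which does not involve the CC9 mus arrays, 4 of the 10 loci differed in limma's F test with the scan period in the model, against 2.24% of all loci. These were the lower island of *Grb10* (adjusted p = 0.0132), *Peg3* (0.0254), *Plagl1* (0.0376) and the lower island of *Igf2r* (0.0431). The largest difference between any of the 3 lines was 2.66, 3.20, 2.42 and 2.65 in that order. CC9 spretus, whose arrays of the earlier period had scan days of their own, was highest at each of them, and every CC9 pahari array was below the 9 others at *Peg3*, *Plagl1* and the lower island of *Igf2r*, against 0.789% of all loci. *Mest*, where CC9 spretus was lowest, did not pass (adjusted p = 0.0892), except without CC9 dunni replicate 3 (0.0227). Of single probes 1 of 72 was called, A_68_P27594242 in *Grb10* (adjusted p = 0.0452), which was named after its value was seen, against 0.206% of all probes. That count was 2 without CC9 spretus replicate 1 (0.0563% of all probes), 8 without its replicate 2 (0.418%) and 0 without any other array of the divergent lines. Without centring it was 7 (0.487%), and with probes of dim input left out 19 of the 66 kept (0.749%). With equal spread, without the scan period or with the replicate number as a block it was 0. Without CC9 dunni or CC9 pahari replicate 1 or 2 the number of called loci was 0, and without CC9 spretus replicate 3 it was 1. It was 0 as well with normexp correction, with equal spread or without the scan period in the model. With the replicate number as a block it was 2, *Peg3* and the lower island of *Grb10*. With normexp correction CC9 dunni replicate 3 no longer lay above all CC9 pahari arrays at the 3 loci (0.00 against −0.09 to 0.27 at *Peg3*).

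The percentile of a locus among the 13463 loci with at least 3 probes on the same array does not depend on the spread of that array. On the CC9 mus arrays *Mest* stood at 99.2, 99.2 and 99.9, *Plagl1* at a mean of 99.2, *Peg3* at 98.7 to 99.4 and the lower island of *Igf2r* at 98.6, 98.4 and 99.6. These 4 loci lie at the top of the scale, and lower on it the same arrays gave 46.9 to 76.5 for *Peg10* and 51.8 to 70.2 for *Impact*. In CC9 pahari the 3 arrays gave 16.2 to 23.5 for *Peg3*, 40.1 to 49.4 for the lower island of *Igf2r* and 70.4 to 83.4 for *Plagl1*, and 94.4 to 96.4 for *Mest*. In an exact permutation test over the 220 choices of 3 arrays, two-sided and unadjusted over the 10 loci, the percentile was higher in CC9 mus at the upper island of *Grb10* (86.2 against 33.3, p = 0.00455, the smallest possible), *Peg10* (65.2 against 32.4, p = 0.0182) and *Mest* (99.4 against 93.8, p = 0.0227). Of all ranked loci 30.0% passed this test and 13.7% passed it with the percentile higher in CC9 mus, so that 3 of 10 is no result about these genes. Against the 3 divergent arrays of the later period the differences in percentile were 55.5, 17.9 and 8.51 in that order, and at *Peg10* CC9 spretus replicate 3 (81.6) lay above every CC9 mus array. At the other 7 loci the exact p was 0.0636 to 0.227. Leaving out any CC9 mus array left 1 of the 3, the upper island of *Grb10*, and leaving out CC9 dunni replicate 3 gave 4, with *Slc38a4* (exact p = 0.0242).

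**Figure D3:**
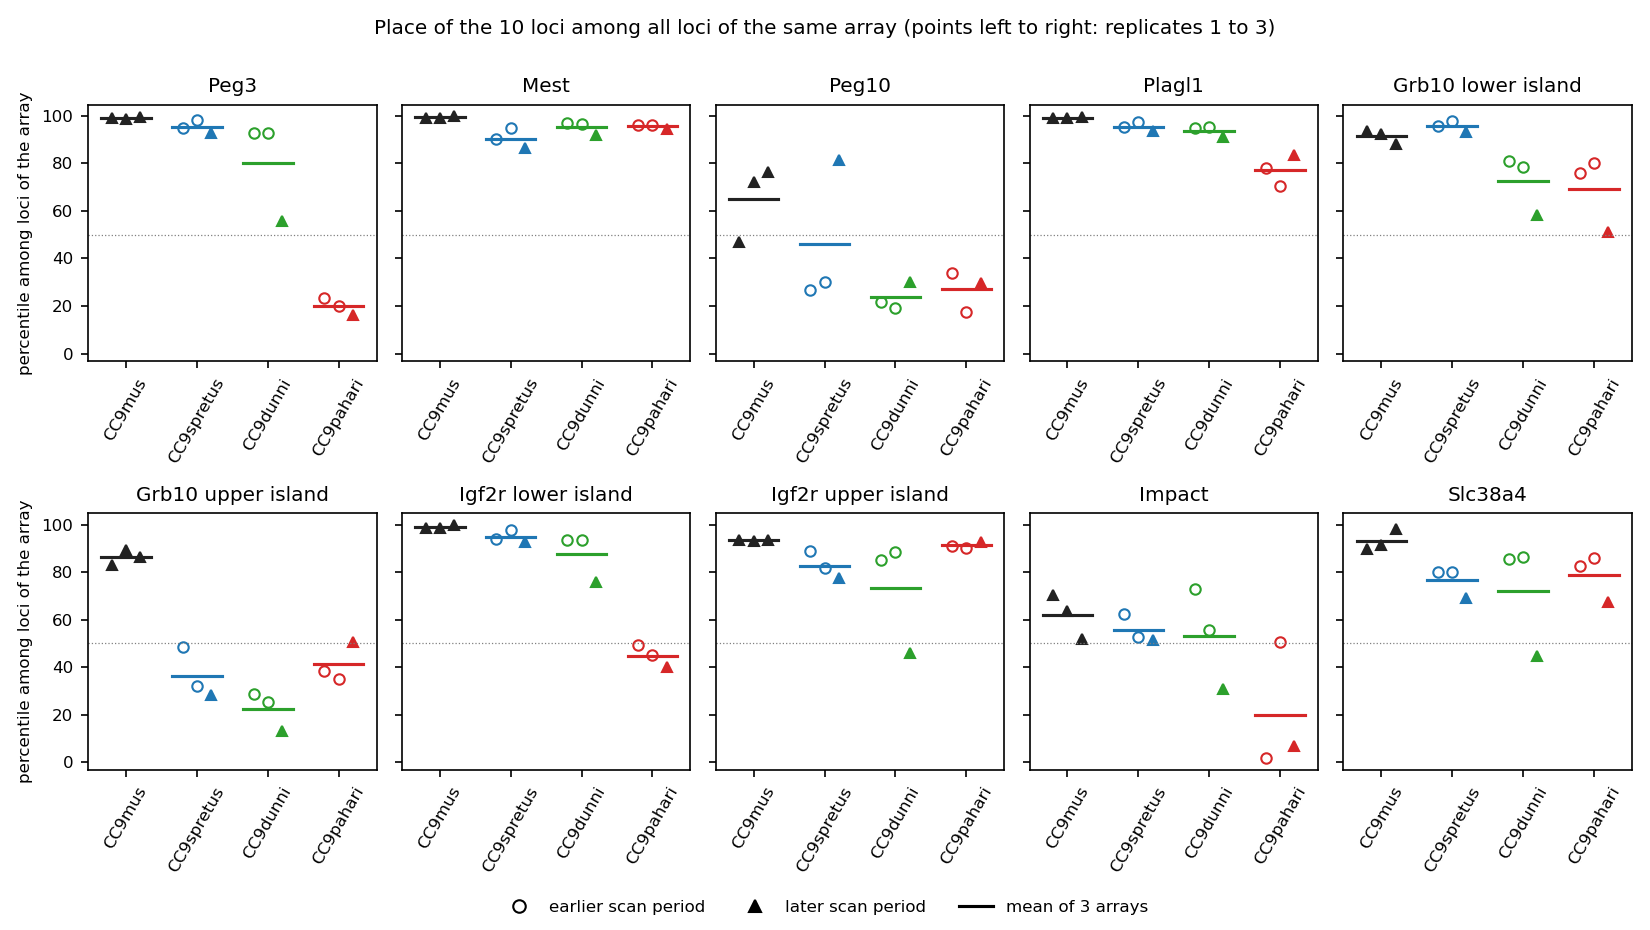
The percentile of each of the 10 loci among all loci of the same array (vertical axis, from 0 to 100), by line (horizontal axis), with a bar at the mean of 3 arrays. *Mest* is above 86 on every array, and *Peg3* is above 98 on the CC9 mus arrays and below 24 on those of CC9 pahari.

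Input DNA enters each ratio as the denominator, so its signal was compared at the same probes as the deviation from the mean of the 12 arrays. In CC9 mus it was lower, with differences of −0.43 at *Mest* (exact permutation test, two-sided, p = 0.00455), −0.33 at *Plagl1* (p = 0.0182), −0.29 at *Slc38a4* (p = 0.00455), −0.21 at *Grb10* (p = 0.0273) and −0.10 at *Peg3* (p = 0.0364, but 0.04 by the median of its probes) on the log2 scale, unadjusted over 8 windows. By locus, 6 of the 10 loci of the windows passed the same test, in either direction. Of all ranked loci 50.7% passed it, and 19.7% passed it with a lower input in CC9 mus. In the windows of other imprinted genes the input was lower at *Meg3* (−0.82, exact p = 0.00455) and higher at *Kcnq1ot1* (0.46, p = 0.00455), *Nap1l5* (0.52, p = 0.00455) and *Nnat* (0.13, p = 0.0227). The shift was therefore neither limited to the 8 windows nor of 1 direction. The differences of the ratio were 2.45 at *Mest*, 2.37 at *Plagl1*, 2.02 at *Slc38a4* and 2.80 at *Peg3*. At the lower and upper island of *Grb10* they were 0.75 and 1.87. With equal spread these values were 1.18, 1.29, 1.14, 1.85, 0.04 and 1.36 in the same order. At *Peg10*, *Igf2r* and *Impact* the exact p of the input was 0.395 to 0.705. Of the 5 windows, 2 still passed without CC9 mus replicate 1 and 2 without replicate 2, in both cases *Mest* and *Slc38a4*, and *Grb10* no longer passed without replicate 3 (exact p = 0.109). Against the 3 divergent arrays scanned in the later period the input difference was −0.22 at *Mest*, −0.15 at *Plagl1*, −0.20 at *Slc38a4*, −0.08 at *Grb10*, −0.08 at *Peg3* and −0.09 at *Peg10*. It was larger at *Igf2r*, −0.21 in place of −0.05, and reversed at *Impact*, −0.34 in place of 0.09. The part of the input in the ratios was not tested.

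By the rule of the 3 loci outside the windows with the highest Pearson r over the 12 arrays, *Peg3*, *Plagl1* and the lower island of *Igf2r* shared the same 3 loci. These were chr11:22872000-22873052 (9 probes), the locus in the window of the imprinted gene *Nap1l5* at chr6:58856617-58857246 (5 probes) and the one in the intergenic window upstream of the imprinted gene *Meg3* at chr12:110766379-110766726 (4 probes), with r from 0.932 to 0.979 among 13453 loci. For *Mest* the first locus was chrX:19636898-19638306 (r = 0.959), for the lower island of *Grb10* chr7:135831552-135832148 (r = 0.898), for *Peg10* chr8:90186248-90186623 (r = 0.970), for *Slc38a4* chr11:69049004-69050190 (r = 0.994) and for *Impact* chr17:74154040-74154418 (r = 0.754). The 12 points of each r include the CC9 mus arrays with their unequal spread.

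The 250 bases before the start of transcription are shown for 4 of the genes because their content of CpG, the substrate of methylation, differed between the genes. Sequences are from RefSeq on build GRCm38.p6, not the build of the probes, so that they were not placed against the islands, and 6 of the 8 genes were matched. The table holds 32817 promoters, with a median of 6 CpG in these 250 bases. Capitals mark each CpG. *Grb10* had 40 CpG at its first start (chr11:12037421-12037670, minus strand), more than 98.7% of all promoters, *Plagl1* 19 (chr10:13090582-13090831, plus strand), *Mest* 14 (chr6:30737800-30738049, plus strand) and *Peg3* 8 (chr7:6730420-6730669, minus strand). *Igf2r* had 27. *Mest* has another start with 14 CpG only 3 bases away and a further one with 7 (chr6:30733256-30733505), *Grb10* has a second with 8 (chr11:12027972-12028221), and the start shown for *Mest* was chosen after its sequence was seen. The 6 letters TGCCGC, known as the core recognised by the imprint-protecting protein Zfp57, were searched on both strands. They occurred 2 times in the sequence shown for *Mest* and 0 times at its start with 7 CpG. In the sequence of *Plagl1* they occurred 1 time and in those of *Peg3* and *Grb10* 0 times. The starts of *Igf2r* and *Slc38a4* also held them 0 times, and 8.68% of all promoters held them.
*Peg3*: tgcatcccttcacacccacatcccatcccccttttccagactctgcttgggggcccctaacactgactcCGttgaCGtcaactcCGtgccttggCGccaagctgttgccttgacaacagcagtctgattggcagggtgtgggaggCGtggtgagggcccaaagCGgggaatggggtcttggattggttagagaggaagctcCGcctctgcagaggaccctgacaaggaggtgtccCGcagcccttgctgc
*Plagl1*: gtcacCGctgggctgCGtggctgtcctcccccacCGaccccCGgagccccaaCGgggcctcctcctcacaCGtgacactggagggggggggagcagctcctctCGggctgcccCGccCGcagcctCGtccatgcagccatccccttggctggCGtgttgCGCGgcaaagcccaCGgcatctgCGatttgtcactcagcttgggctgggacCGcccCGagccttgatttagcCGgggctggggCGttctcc
*Mest*: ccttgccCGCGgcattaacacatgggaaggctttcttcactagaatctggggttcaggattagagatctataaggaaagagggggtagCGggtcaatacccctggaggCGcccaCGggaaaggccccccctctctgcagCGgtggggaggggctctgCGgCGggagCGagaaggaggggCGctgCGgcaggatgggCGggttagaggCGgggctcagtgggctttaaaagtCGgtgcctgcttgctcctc
*Grb10*: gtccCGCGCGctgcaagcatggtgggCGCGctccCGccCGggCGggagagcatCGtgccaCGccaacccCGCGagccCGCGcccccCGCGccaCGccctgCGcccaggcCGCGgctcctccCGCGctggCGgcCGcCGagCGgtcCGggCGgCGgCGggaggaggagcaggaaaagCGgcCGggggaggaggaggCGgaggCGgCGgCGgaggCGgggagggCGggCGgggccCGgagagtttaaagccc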

How the data were processed

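MeDIP was measured on 2-colour Agilent arrays in 12 samples, with IP in Cy5 and input in Cy3. Agilent Feature Extraction (11.0.1.1 in the file headers, 11.0.1.0 in the labels) was run by the authors, and the processed signals they deposited are intensities after background subtraction, detrending and linear dye normalisation. The deposited ratios are log10 of IP over input, used as an alternative. From the intensities log2(IP/input) was computed for 88737 probes, outlier spots were dropped and the median of each array was subtracted. Differences were fitted over all probes and over all loci with limma 3.58.1 (R 4.3.3), with Benjamini-Hochberg adjustment over all of them. Equal spread means arrays scaled to the same median absolute deviation, and normexp (offset 50) was run on median spot and background signals, so that it also lacks the detrending and dye normalisation of the processed signals. Python 3.11.15, numpy 2.4.6, pandas 2.3.3 and matplotlib 3.10.9 were used. The files pair no probe with a gene, so genes are named by window. Per array 75.2% to 98.6% of probes had IP well over background, and the number of arrays limits the precision. All 8 genes were described. Within a window the probes with the highest and lowest mean were named, and at most 2 called probes whose CC9 mus arrays all lay beyond the 9 others. The members and lists were chosen with earlier results of these data known.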

Additional observations from a re-analysis of the deposited data

Results flagged for a closer look

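The 3 divergent lines differed from each other at 4 loci, by the limma F test of the report with the scan period in the model, in which the CC9 mus arrays take no part. The adjusted p was 0.02544 at *Peg3*, 0.03761 at *Plagl1*, 0.01325 at the lower island of *Grb10* and 0.04309 at the lower island of *Igf2r*. Over the alternatives, among them each array left out, the adjusted p ranged from 0.0137 to 0.327 at *Peg3*, 0.0191 to 0.377 at *Plagl1*, 0.0011 to 0.132 at the lower island of *Grb10* and 0.0236 to 0.256 at the lower island of *Igf2r*. Leaving out replicate 1 or 2 of CC9 dunni or CC9 pahari ended all 4 calls, and leaving out CC9 spretus replicate 3 ended all but that of the lower island of *Grb10*. Without CC9 dunni replicate 3 the call of the lower island of *Igf2r* was lost (0.0502). Normexp correction, equal spread and a fit without the scan period each ended all 4. With the replicate number as a block *Plagl1* and the lower island of *Igf2r* did not pass. With 3 arrays per line, single arrays were not tested for standing apart.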

How the results depend on the processing

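The 10 loci kept the direction of CC9 mus against the other lines in 230 of 230 alternative values. As 0 of the 10 passed in the main fit, 209 of these values also did not pass, and 21 did. The alternatives reuse the same arrays, and none parts line from scan day, so they are not separate support. The scan period in the model and the later period alone gave the same differences. The loci that differed among the divergent lines, the CC9 pahari arrays below all others and the named probes were put through alternatives chosen after seeing the data.

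With normexp correction, which also replaces the processed by the median spot signals, the probes higher in CC9 mus (14) numbered 0, the loci differing among the divergent lines (4) 0 and the loci with CC9 pahari below all others (3) 0. Without centring the numbers were 22 probes (5.83% of all) and 3 loci (from 0, 7.90% of all) in CC9 mus and 7 probes (from 1, 0.487% of all) among the divergent lines. Equal spread gave 9 probes (12.1% of all) and 2 loci (13.8% of all) in CC9 mus, and 0 probes and 0 loci among the divergent lines. For CC9 spretus, CC9 dunni and CC9 pahari against CC9 mus it gave 2, 9 and 15 probes (from 0), with 0.178%, 9.16% and 3.95% of all. With probes of dim input left out there were 1 locus (5.64% of all) in CC9 mus and 19 of the 66 probes kept (0.749% of all) among the divergent lines. The slide, the scan period and the later period alone each gave 0 probes in CC9 mus. The scan period with equal spread gave 23 probes (21.4% of all) and 4 loci (30.0% of all) in CC9 mus, and 9, 14 and 30 probes (7.86%, 19.5% and 14.6% of all) for the other 3 comparisons. Without the scan period 0 probes and 0 loci differed among the divergent lines.

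Leaving out each array gave 0 to 58 probes and 0 to 9 loci in CC9 mus. The highest counts came without CC9 mus replicate 1, where 40.4% of all probes and 50.3% of all loci were called. For CC9 spretus, CC9 dunni and CC9 pahari there were 0 to 43, 0 to 60 and 0 to 60 probes, highest in the same fit (27.0%, 34.0% and 31.7% of all). Among the divergent lines there were 0 to 8 probes (0.418% of all at 8) and 0 to 4 loci (1.76% to 3.43% of all at 4). By percentile 1 to 4 loci passed (from 3), by input signal 2 to 5 windows (from 5), and 3 to 4 loci had CC9 pahari lowest. The threshold of 2 (log2) on every array gave 21 probes (from 52, 4.81% of all). By the median of probes 3 windows differed in input, which reversed at *Peg3* (0.0351) and *Igf2r* (0.151). Leaving out arrays reversed the input difference of *Igf2r* (−0.0773 to 0.00207) and *Impact* (−0.0170 to 0.172). The causes were not tested.

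Same-numbered arrays correlated in their deviations at −0.38 to 0.19 in pairs with CC9 mus and at 0.12 to 0.54 between divergent lines, where arrays of other numbers correlated at 0.08 to 0.37 within a scan period and at −0.48 to −0.15 across periods. The labels tie no samples by number. With the replicate number as a block there were 17 probes (8.42% of all) and 2 loci (7.96%) in CC9 mus, 5 probes (1.18%) for CC9 dunni, and 0 probes and 2 loci (*Peg3* and the lower island of *Grb10*, 1.06% of all) among the divergent lines, the adjusted p being 0.0616 at *Plagl1* and 0.0623 at the lower island of *Igf2r*. At each of the 3 named probes 7 of 22 alternative values kept the call. On arrays, the IP signal over background limits values near or below 0.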

Other observations

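Other imprinted loci were placed from background knowledge, and their windows held 28 probes. The windows placed for *Snrpn* and *H19* held no probe. The *Kcnq1ot1* island (chr7:150481208-150482535), maternally methylated, gave 2.61, 4.46 and 2.83 on the CC9 spretus arrays, and −0.50 to 0.35 on the 9 others. It differed among the divergent lines (limma F test, adjusted p = 0.0126), with an adjusted p of 0.0011 to 0.109 over the alternatives. The call was lost with equal spread (0.109) and without CC9 pahari replicate 1 (0.0548) or 2 (0.0570) or CC9 dunni replicate 1 (0.0533) or 2 (0.0542). CC9 mus had −0.14, −0.10 and −0.48 there, unlike at *Peg3*, and 8 of its 8 probes had a mean above 2 in CC9 spretus and 0 in the other lines. All CC9 spretus arrays were above the 9 others here, as at 28 of the 14580 loci of the array. Those of the earlier period had scan days of their own.

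At the intergenic region upstream of *Meg3* (chr12:110766379-110766726), which is methylated on the paternal copy, the log2 ratio was 3.45, 6.99 and 7.68 for CC9 mus, 2.50, 4.02 and 2.31 for CC9 spretus, 1.52, 1.44 and −0.57 for CC9 dunni, and 0.20, 0.09 and 0.59 for CC9 pahari. CC9 mus was highest in mean and overlapped CC9 spretus. All 4 of its probes were called higher in CC9 mus (limma, adjusted p = 0.0405), and all 4 calls were lost with normexp correction, with the scan period in the model (0.171) and without any 1 array other than CC9 mus replicate 1 (up to 0.115). At *Nap1l5* (chr6:58856617-58857246) CC9 pahari gave 0.42, 0.42 and 0.45, below the 9 others, which lay at 1.52 to 5.81. Such a gap below the 9 others was seen for CC9 pahari at 0.789% of all loci. The lower *Nnat* island (chr2:157385700-157386395) gave 0.47, 0.28 and 0.59 with CC9 pahari and 0.53, 2.66 and 4.68 with CC9 mus, which overlapped, and 2.92, 2.81 and 0.86 with CC9 dunni and 2.93, 4.69 and 1.83 with CC9 spretus. Neither *Nap1l5* nor the lower *Nnat* island passed the F test among the divergent lines (limma, adjusted p = 0.0567 and 0.0707). At the upper *Nnat* island CC9 mus had the lowest line mean, −0.19. Its difference from the divergent lines was −0.45 (limma, adjusted p = 0.0881). The F test among the divergent lines gave an adjusted p of 0.508 there.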
